A study of Homo sapiens with 8 samples.

Results

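Integrins are cell-surface receptors made of 1 alpha and 1 beta subunit, and 10 genes for such subunits were followed: the alpha subunit genes ITGA2, ITGA3, ITGA5, ITGA6 and ITGAV and the beta subunit genes ITGB1, ITGB4, ITGB5, ITGB6 and ITGB8. They were found by exact gene symbol among the 58870 genes of the deposited table. All 10 passed the filter on low counts, which left 13860 genes. The libraries came from Panc 10.05, an established line of cells from a human pancreatic ductal adenocarcinoma. Control cells gave 4 libraries, and cells carrying an ELAPOR1 transgene, described as overexpressing it, gave the other 4. ELAPOR1 encodes a transmembrane protein of endosomes and lysosomes, and the series concerns its relation to the classical/progenitor subtype of pancreatic cancer. The labels do not say what the control cells carry, which promoter drives the transgene, or whether the replicates were separate cultures or clones. P-values therefore measure the spread between these libraries, which may be technical.

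An integrin is exported to the surface only as an alpha-beta pair, where the outer domains bind matrix proteins and the inner tails connect to actin or to keratin filaments. ITGB1 pairs with many alpha subunits, and ITGB4 pairs with the alpha 6 subunit alone. In epithelia, alpha 2 beta 1 is a collagen receptor, alpha 3 beta 1 and alpha 6 beta 4 are laminin receptors, and alpha 5 beta 1 is the classic fibronectin receptor. Of the beta subunits followed here, beta 1, beta 5, beta 6 and beta 8 pair with the alpha V subunit. The pairs with beta 6 and beta 8 are known for releasing active TGF-beta from its latent complex.

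Libraries held 16558600 to 18128757 counts in control and 13765509 to 17258166 in ELAPOR1, and 0 pairs of libraries held identical values. ELAPOR1, listed as KIAA1324, had 1 to 4 counts in each control library and 5910 to 7368 in each library of the transgenic cells, as labelled. All 6 epithelial and ductal markers were tested and 5 called, 3 higher and 2 lower (edgeR adjusted p under 0.05, which 44.7% of all tested genes passed), and their summed level was 11900 to 13200 CPM (counts per 1000000 counts of the library, scaled by TMM throughout) in control and 11200 to 11500 CPM in ELAPOR1 libraries. Of these, KRT7 (log2 fold change 0.32, edgeR adjusted p = 6.5e-11) and KRT19 (0.25, adjusted p = 3.4e-07) rose and KRT18, which overlaps KRT8, fell (-0.36, adjusted p = 2.2e-12). Of 6 fibroblast markers 3 had no count in any library, including DCN and LUM, and the summed level was 2.95 to 4.32 against 2.71 to 3.19 CPM, nearly all of it COL1A1. Among leukocyte markers CD3E had no count in any library and PTPRC had at most 1, while the sum over the list was 89.1 to 95.9 against 80.5 to 87.8 CPM, mostly CD68, a lysosomal protein that fell (log2 fold change -0.16, adjusted p = 0.0021). Of 5 endothelial markers CDH5 had no count and the sum was 1.65 to 2.13 against 0.576 to 0.998 CPM. The part of these markers in the results was not tested. In bulk RNA, fewer cells expressing a gene and less of its RNA per cell cannot be told apart.

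Of the 10 subunit genes, 9 passed the threshold of 0.05 on the edgeR adjusted p for ELAPOR1 against control, 6 higher and 3 lower. Among all tested genes 44.7% passed the same threshold, 22.6% higher and 22.1% lower, and among the 10703 that averaged 5 CPM or more, where 9 of the subunits lie, 51.4% did. The same 9 genes had groups of libraries that did not overlap, as had 39.2% of all tested genes. The alpha subunits ITGA2, ITGA3, ITGA5 and ITGA6 and the scarce beta subunits ITGB6 and ITGB8 rose. The abundant beta subunits ITGB1, ITGB4 and ITGB5 fell. The median log2 fold change of the 10 genes was 0.29, against 0.000875 over all tested genes, and single values ran from -0.23 to 0.70. The members were chosen with earlier results of these data known, so their share called and their median may partly reflect that choice. Of the 5 other integrin subunit genes tested, 1 was called, and their median was -0.14. The median size of a change, regardless of direction, was 0.175 over all tested genes. In edgeR's test against a 1.5-fold change none of the 10 passed, and 0 reached an unadjusted p under 0.05. That test called 1.55% of all tested genes, so a count of 0 among 10 genes does not set them apart.

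**Figure D1:**
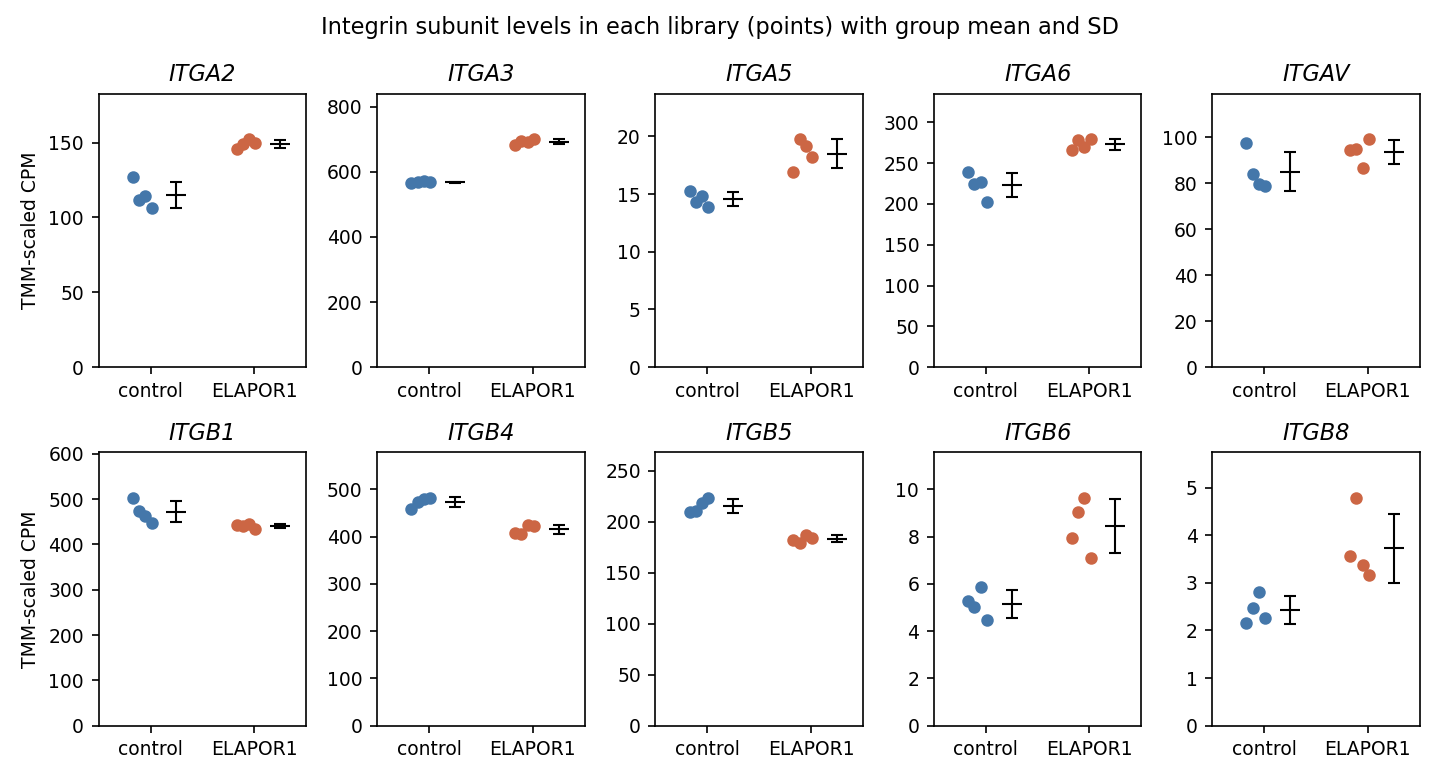
TMM-scaled CPM (y axis, from 0, one scale per gene) of the 10 integrin subunit genes in 4 control and 4 ELAPOR1 libraries (points), with the group mean and SD beside them (black). The groups do not overlap in any panel but that of ITGAV.

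The alpha subunits of the beta 1 family were taken first. ITGA3, the laminin-binding alpha 3 subunit (ENSG00000005884.18, chromosome 17, 50055968 to 50090481 in GRCh38), was at 566.1, 567.4, 570.4 and 568.0 CPM in the 4 control libraries. It was at 680.8, 694.1, 691.9 and 700.0 CPM in the 4 ELAPOR1 libraries. The spread within each group was far smaller than the step between them. ITGA3 rose by 0.28 on the log2 scale (SE 0.0263, 1.22-fold, edgeR adjusted p = 6.9e-11). ITGA6, the alpha 6 subunit (ENSG00000091409.15, chromosome 2, 172427354 to 172506282), was at 238.8, 224.5, 227.1 and 202.6 CPM in control and 265.7, 277.6, 269.4 and 279.3 CPM in ELAPOR1 libraries. Every ELAPOR1 library was above every control library, and the log2 fold change was 0.29 (SE 0.0372, 1.22-fold, edgeR adjusted p = 2.1e-07).

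ITGA2, the collagen-binding alpha 2 subunit (ENSG00000164171.11, chromosome 5, 52989326 to 53094779), had 127.1, 111.9, 114.0 and 106.4 CPM in control and 145.8, 148.8, 152.3 and 149.7 CPM in ELAPOR1 libraries. It had the largest rise of the alpha subunits, with the groups apart, at 0.38 on the log2 scale (SE 0.0412, 1.30-fold, edgeR adjusted p = 5.5e-09). ITGA5, the fibronectin-binding alpha 5 subunit (ENSG00000161638.11, chromosome 12, 54395261 to 54419460), was much less abundant. It had 15.3, 14.3, 14.9 and 13.8 CPM in control and 16.9, 19.8, 19.2 and 18.2 CPM in ELAPOR1 libraries, again without overlap, and rose by 0.34 on the log2 scale (SE 0.0797, 1.27-fold, edgeR adjusted p = 6.4e-04).

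ITGAV, the alpha V subunit (ENSG00000138448.12, chromosome 2, 186590065 to 186680901), was the member not called. Its control libraries had 97.4, 84.0, 79.8 and 78.7 CPM and its ELAPOR1 libraries 94.2, 94.7, 86.5 and 99.1 CPM. Control replicate 1 lay within the ELAPOR1 range, and so the groups overlapped. Its difference was 0.14 (log2, SE 0.0601, 1.10-fold, edgeR adjusted p = 0.068). Without control replicate 1 it was 0.21 (edgeR adjusted p = 6.39e-05) and without ELAPOR1 replicate 3 it was 0.18 (adjusted p = 0.0217), so that single libraries decided on which side of the threshold it fell.

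The 3 abundant beta subunits went the other way. ITGB1, the common beta 1 subunit (ENSG00000150093.19, chromosome 10, 32900319 to 33005792), had 503.3, 474.7, 462.5 and 448.2 CPM in control and 442.6, 440.1, 444.7 and 434.0 CPM in ELAPOR1 libraries. The highest ELAPOR1 library lay just under the lowest control library, a narrow gap that depends on the TMM scaling. With total count scaling the log2 fold change was -0.080 (edgeR adjusted p = 0.0365). ITGB1 fell by 0.10 on the log2 scale (SE 0.0310, 1.07-fold, edgeR adjusted p = 0.0080). ITGB4, the hemidesmosomal beta 4 subunit (ENSG00000132470.14, chromosome 17, 75721328 to 75757818), had 458.0, 473.4, 479.4 and 482.4 CPM in control and 406.9, 405.5, 424.9 and 423.0 CPM in ELAPOR1 libraries. The groups were well apart, and ITGB4 fell by 0.19 on the log2 scale (SE 0.0289, 1.14-fold, edgeR adjusted p = 1.8e-06). It overlaps GALK1 on the opposite strand, which had 296 to 348 counts in control and 230 to 298 in ELAPOR1 libraries. ITGB5, the vitronectin-binding beta 5 partner of alpha V (ENSG00000082781.12, chromosome 3, 124761948 to 124901418), had 209.2, 210.7, 218.0 and 223.6 CPM in control. Its ELAPOR1 libraries had 182.4, 179.2, 187.2 and 184.0 CPM, all lower than control. Its fall of 0.23 on the log2 scale was the largest of the members (SE 0.0322, 1.18-fold, edgeR adjusted p = 2.9e-07).

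The TGF-beta-activating beta subunits were scarce and rose most. ITGB6, the epithelial beta 6 subunit (ENSG00000115221.12, chromosome 2, 160099666 to 160200313), had 95, 85, 98 and 73 counts (5.27, 5.02, 5.87 and 4.45 CPM) in control. It had 129, 136, 134 and 123 counts (7.92, 9.05, 9.65 and 7.10 CPM) in ELAPOR1 libraries, without overlap. ITGB6 rose by 0.70 on the log2 scale (SE 0.131, 1.63-fold, edgeR adjusted p = 3.9e-05), a size larger than that of 94.2% of tested genes. ITGB8, the beta 8 subunit (ENSG00000105855.10, chromosome 7, 20330702 to 20415754), had only 39, 42, 47 and 37 counts in control and 58, 72, 47 and 55 in ELAPOR1 libraries. As CPM these were 2.16, 2.48, 2.82 and 2.26 against 3.56, 4.79, 3.38 and 3.17, which did not overlap. ITGB8 rose by 0.61 on the log2 scale (SE 0.193, 1.53-fold, edgeR adjusted p = 0.0093). Without ELAPOR1 replicate 2, the library with most of it, the value was 0.47 and the call was lost (edgeR adjusted p = 0.0695). The antisense transcript AC004130.1, which overlaps ITGB8, had 0, 1, 0 and 0 counts in control and 10, 6, 3 and 5 in ELAPOR1 libraries. AC092153.1, which overlaps ITGB6 on the same strand, had no count in control and at most 3 in ELAPOR1 libraries. Whether the counting used strand is not given in the sources used here. The overlaps are of whole gene spans, and shared exon sequence was not looked for. Whether reads of ITGB8 and of its antisense transcript were mixed was not tested.

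The sequences before the start sites of the member with the largest rise, of the alpha subunit with the largest rise and of the member with the largest fall are shown to set them side by side. They were taken from RefSeq's table of promoters (GRCh38.p14), which matched 8 of the 10 genes (not ITGA3 and ITGB4), at the first start listed for each gene, and were cut where the GENCODE gene begins. They are written 5′ to 3′ on the gene's strand (minus for ITGB6 and ITGB5, plus for ITGA2), with capitals for the GC box, GGGCGG on either strand.
ITGB6 chr2:160200314-160200522: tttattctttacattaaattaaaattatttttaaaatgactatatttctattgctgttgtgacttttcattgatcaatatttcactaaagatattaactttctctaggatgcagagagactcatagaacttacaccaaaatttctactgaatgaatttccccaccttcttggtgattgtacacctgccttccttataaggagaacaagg
ITGA2 chr5:52989102-52989325: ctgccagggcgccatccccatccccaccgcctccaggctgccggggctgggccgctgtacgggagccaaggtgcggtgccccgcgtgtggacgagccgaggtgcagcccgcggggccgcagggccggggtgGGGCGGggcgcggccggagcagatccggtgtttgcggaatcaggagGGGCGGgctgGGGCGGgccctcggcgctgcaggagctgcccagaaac
ITGB5 chr3:124901419-124901668: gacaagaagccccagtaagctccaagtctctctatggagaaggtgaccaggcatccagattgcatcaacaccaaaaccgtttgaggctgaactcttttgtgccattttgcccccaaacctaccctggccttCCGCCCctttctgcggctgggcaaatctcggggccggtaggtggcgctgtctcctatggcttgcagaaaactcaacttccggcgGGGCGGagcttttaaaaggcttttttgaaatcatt
The ITGB6 stretch was AT-rich and held no GC box, the ITGA2 stretch held 3 and the ITGB5 stretch 2. Over the full 250 bases before the start, G and C made up 30.0% of the ITGB6 sequence, 76.4% of that of ITGA2 and 52.8% of that of ITGB5. A GC box lay in this window in 5 of the 8 subunit genes (ITGA2, ITGA5, ITGB1, ITGB5 and ITGB8) and in 42.3% of 27305 promoters of the table. The windows of ITGA5, ITGB1 and ITGB8 lay mostly or wholly within the gene as GENCODE places it. A motif in these windows therefore need not lie before the GENCODE start. The letters TGAGTCA, bound by AP-1 factors, were in 0 of the 8 windows and in 4.16% of all, and GGAATG, bound by TEAD factors, was in 2 (ITGA5 and ITGB1) and in 11.9% of all. CACGTG, a palindromic E-box, was in 1 window (ITGA6) and in 6.49% of all. Each motif was searched on both strands, and a match or its absence describes these letters in this window only. No motif lay in the windows of all 5 searched members that rose. Both searched members that fell (ITGB1 and ITGB5) held a GC box, as did 3 of those that rose, and ITGB4 was not searched.

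Each subunit gene was also set beside its chromosomal neighbours, the 10 tested genes on each side that averaged 5 CPM or more. The stretches so covered differed much in length. The shortest was 75266228 to 75979363 on chromosome 17 (ITGB4) and the longest 28532493 to 42638568 on chromosome 10 (ITGB1). Over all tested genes 22.6% were called higher and 22.1% lower, and of those averaging 5 CPM or more 51.4% were called either way. Neighbours of ITGA3 showed a median of 0.18 on the log2 scale, against 0.28 for ITGA3 itself, and 12 of 20 were called higher and 2 lower. Neighbours of ITGA6 and of ITGAV each had a median of 0.14, against 0.29 for ITGA6 and 0.14 for ITGAV. Called higher were 9 and 10 of 20, and called lower 2 and 3. Neighbours of ITGA2 (-0.086) and ITGA5 (-0.10) had medians on the other side of 0 from these genes, as did those of ITGB1 (0.030) and ITGB4 (0.017). Called higher and lower were 3 and 9 of 20 for ITGA2, 1 and 7 for ITGA5, 7 and 3 for ITGB1, and 7 and 6 for ITGB4. Neighbours of ITGB5 had a median of -0.094, on the same side as ITGB5, with 2 of 20 called higher and 8 lower. Those of ITGB6 had a median of 0.043 (6 higher and 1 lower) and those of ITGB8 0.035 (6 higher and 7 lower). The part of the neighbourhood in the values of ITGA3, ITGA6, ITGAV and ITGB5 was not tested.

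**Figure D2:**
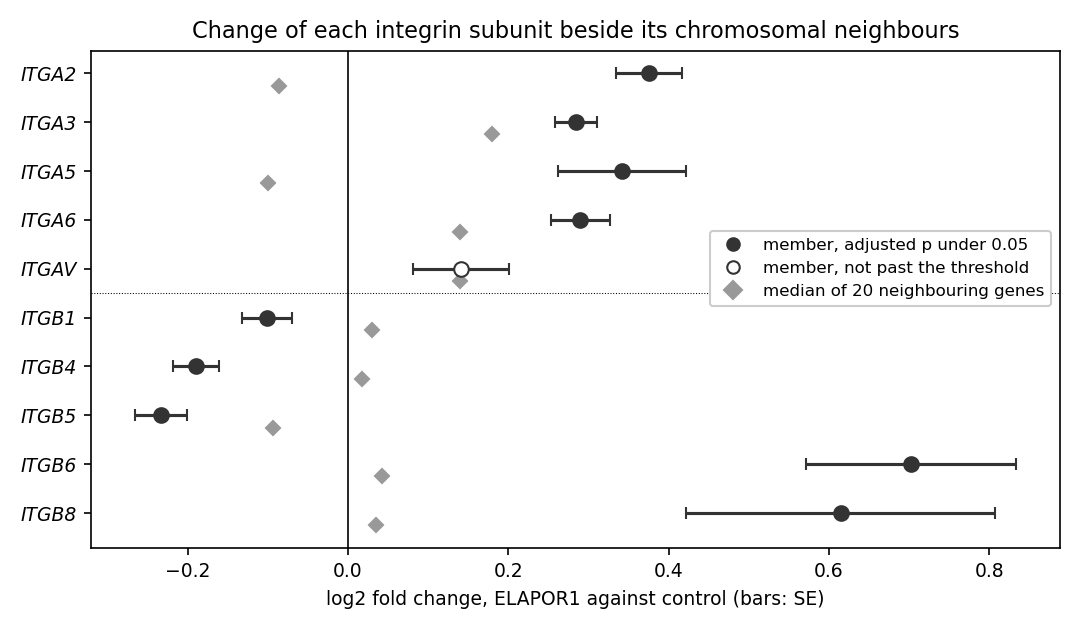
Log2 fold change of each integrin subunit gene, ELAPOR1 against control, with its SE (circles, filled where the edgeR adjusted p is under 0.05), beside the median log2 fold change of its 20 neighbouring genes (grey diamonds). ITGAV alone is open and lies at the median of its neighbours, and ITGB1, ITGB4 and ITGB5 lie below 0.

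Levels of different subunits were compared as CPM per kilobase of the longest annotated transcript. In control libraries ITGB1 was highest at 124.8 ± 6.19 CPM per kb (SD, n = 4), followed by ITGA3 (103.7 ± 0.333), ITGB4 (79.96 ± 1.83), ITGB5 (49.3 ± 1.54) and ITGA6 (39.7 ± 2.69). Then came ITGA2 (14.6 ± 1.12) and ITGAV (12.1 ± 1.23), whose ranges overlapped, ITGA5 (2.92 ± 0.129), ITGB6 (1.10 ± 0.126) and ITGB8 (0.278 ± 0.0333). No other neighbours in this order overlapped. In ELAPOR1 libraries ITGA3 stood first at 126.2 ± 1.46 CPM per kb and ITGB1 second at 116.4 ± 1.23, and ITGA6 (48.6 ± 1.16) stood above ITGB5 (41.9 ± 0.762), without overlap in either case. The order depends on the length used: per kilobase of the union of exons ITGB1 was first in both groups, and ITGA6 was above ITGB5 in both, with overlapping ranges in control.

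As shares of the summed length-scaled level of the 10 genes, ITGA3 went from 24.2 ± 0.479% to 28.6 ± 0.175% and ITGA6 from 9.27 ± 0.473% to 11.0 ± 0.222% (means with SD, n = 4 each). ITGB1 went from 29.1 ± 0.935% to 26.4 ± 0.411%, ITGB4 from 18.7 ± 0.750% to 15.9 ± 0.286% and ITGB5 from 11.5 ± 0.548% to 9.49 ± 0.144%. ITGB6 and ITGB8 stayed a small part of the pool, at 0.257% and 0.0648% in control and 0.408% and 0.0965% in ELAPOR1 libraries. These shares use the longest transcript. With the union of exons ITGA3 went from 19.2% to 22.75% and ITGB4 from 23.2% to 19.8%. The directions were the same, but ITGB4 then had a larger share than ITGA3 in control. The summed alpha level divided by the summed beta level was 0.689, 0.677, 0.681 and 0.663 in control and 0.902, 0.930, 0.894 and 0.931 in ELAPOR1 libraries. These ratios did not overlap, and with the union of exons they were 0.649 ± 0.0182 and 0.879 ± 0.0195 (means with SD, n = 4 each). The sums are mostly ITGA3 and ITGA6 on one side and ITGB1, ITGB4 and ITGB5 on the other. Those genes were already apart in opposite directions, so the separation of the ratio follows from them.

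To ask whether partners of a heterodimer changed unequally, the log2 ratio of their counts was taken within each library for 9 known pairs, which needs no scaling between libraries. In 6 pairs the ratio was higher in every ELAPOR1 library than in any control library (two-sided exact permutation p = 0.0286, the lowest possible with 4 libraries a group, and 0.0429 after Benjamini-Hochberg adjustment over the 9). In 5 of them the alpha subunit was already higher and the beta subunit lower in TMM-scaled CPM, without overlap. Their ratios therefore had to separate, and the p adds nothing to the fold changes above: these ratios describe the size of the shift. The remaining one is ITGAV:ITGB1. Its adjusted p is under 0.05 only because those 5 share the lowest possible p, so its pass is not separate support. For ITGA6:ITGB4, the laminin receptor of hemidesmosomes, the log2 ratio was -0.94, -1.08, -1.08 and -1.25 in control and -0.61, -0.55, -0.66 and -0.60 in ELAPOR1 libraries. The ratio of alpha 6 to beta 4 message was thus 1.40-fold higher, with no overlap. The 5 ratios to ITGB1 share that gene: they differed by 0.48 for ITGA2, 0.44 for ITGA5, 0.39 for ITGA6, 0.38 for ITGA3 and 0.24 for ITGAV on the log2 scale, with no overlap in any of them.

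The other pairs of ITGAV did not pass. ITGAV:ITGB5 differed by 0.38 on the log2 scale, from -1.10, -1.33, -1.45 and -1.51 in control to -0.95, -0.92, -1.11 and -0.89 in ELAPOR1 libraries, where control replicate 1 reached into the ELAPOR1 range. ITGAV:ITGB6 differed by -0.56 and ITGAV:ITGB8 by -0.46, so that here the beta subunit gained. Each had an exact permutation p = 0.0571 (two-sided, also 0.0571 adjusted), and their groups overlapped.

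**Figure D3:**
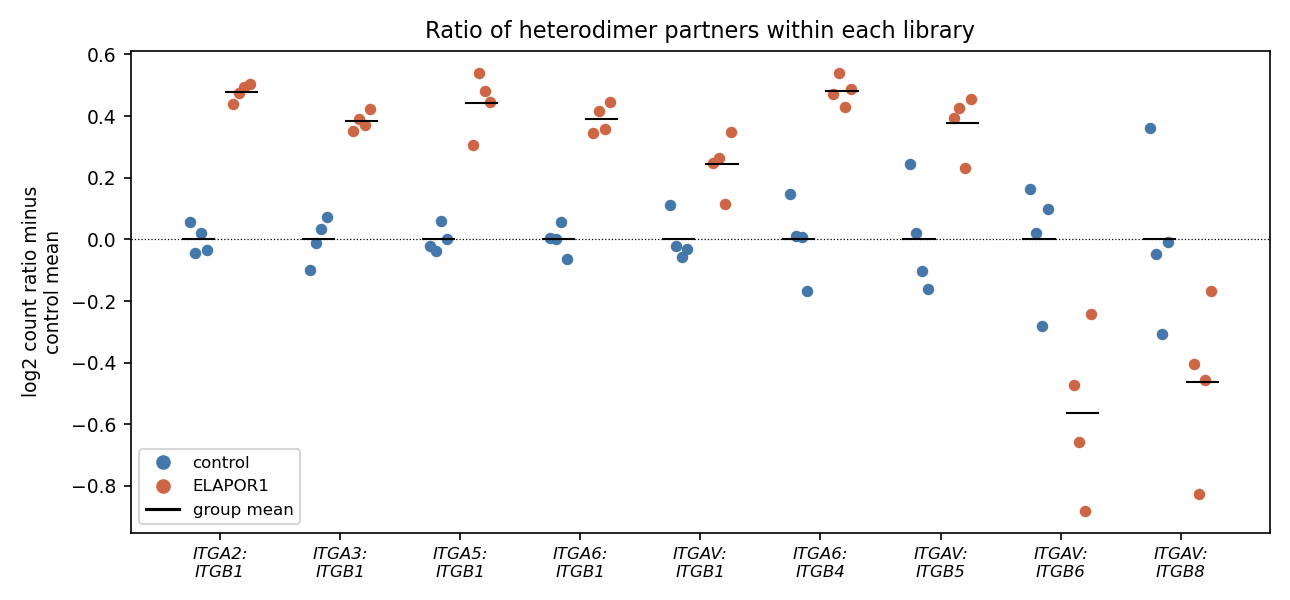
Log2 ratio of alpha to beta subunit counts in each library for 9 heterodimer pairs, less the mean of the control libraries (points: control and ELAPOR1 libraries; lines: group means). The ELAPOR1 libraries lie above all control libraries in the 5 pairs with ITGB1 and in ITGA6:ITGB4, and the groups overlap in the other 3.

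Of the remaining 16 human integrin subunit genes, 4 had no count in any library (ITGA4, ITGA8, ITGA11 and ITGAD) and 5 were tested. ITGA1, the alpha 1 collagen-binding subunit, had 12.1 ± 1.53 CPM in control and 11.5 ± 1.61 in ELAPOR1 libraries (edgeR adjusted p = 0.62), and ITGAE, the alpha E subunit that binds E-cadherin, 11.96 ± 0.899 and 11.3 ± 1.17 (adjusted p = 0.53) (means with SD, n = 4 each). ITGB2, the leukocyte beta 2 subunit, was at 1.60 ± 0.566 and 1.46 ± 0.356 CPM (adjusted p = 0.74), and ITGA7, a laminin-binding alpha subunit, at 1.64 ± 0.124 and 1.03 ± 0.237 CPM (adjusted p = 0.052), without overlap. ITGAX, the leukocyte alpha X subunit, was the 1 of 5 called (20% against 44.7% of all tested genes), at 1.46 ± 0.471 and 0.855 ± 0.215 CPM with overlapping groups (log2 fold change -0.78, edgeR adjusted p = 0.044), and its call was lost in 11 of 19 alternatives, with an adjusted p of up to 0.20 except in the test against a 1.5-fold change. Without control replicate 2 its value was -0.57 (edgeR adjusted p = 0.20). The median over the 5 was -0.14. With no filter beyond 1 count, 12 of these genes were tested and ITGAX was not called, while ITGA10 (2.61, adjusted p = 0.0052) and ITGA9 (3.46, adjusted p = 0.024) were called higher. ITGA10 had 1, 3, 1 and 0 counts in control and 5, 11, 8 and 6 in ELAPOR1 libraries, and ITGA9 0, 0, 1 and 0 against 9, 1, 3 and 2, so these fitted values rest on very few reads.

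Proteins that switch integrins on or off did not share a direction. Of 18 listed 17 were tested and 10 called, 5 higher and 5 lower (58.8% against 44.7% of all tested genes), with a median log2 fold change of -0.056. FERMT1, the epithelial kindlin that binds beta tails and helps activate them, rose from 100.3 ± 6.22 to 156 ± 1.12 CPM (log2 fold change 0.64, edgeR adjusted p = 2.3e-15, mean with SD, n = 4 each). FLNA, filamin A, which binds beta tails and crosslinks actin, rose from 1226 ± 17.8 to 1710.0 ± 25.9 CPM (0.48, adjusted p = 6.4e-17). SLC3A2, the CD98 heavy chain that associates with beta 1 integrin, fell (-0.31, adjusted p = 1.4e-06).

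Among focal adhesion adaptors and kinases, 33 of 34 were tested and 23 called, 15 higher and 8 lower (69.7% against 44.7% of all tested genes). Their median was 0.067. TNS4, a tensin-family adaptor of beta tails, rose from 8.13 ± 0.338 to 19.7 ± 1.15 CPM (log2 fold change 1.28, edgeR adjusted p = 4.6e-14). BCAR1, the p130Cas scaffold (0.53, adjusted p = 1.0e-13), and PDLIM7 (0.47, adjusted p = 2.5e-12) also rose. PTK2, focal adhesion kinase, which was added after its value was seen, fell from 278 ± 8.10 to 238 ± 4.39 CPM (-0.23, adjusted p = 2.1e-07) (means with SD, n = 4 each).

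Hemidesmosomal and tetraspanin partners were called in 9 of 11 tested genes out of 12, 5 higher and 4 lower (81.8% against 44.7% of all tested genes). Their median was 0.012. COL17A1, the transmembrane collagen of hemidesmosomes, rose (log2 fold change 0.37, edgeR adjusted p = 7.2e-05). The tetraspanins CD63 (-0.48, adjusted p = 1.8e-12) and CD9 (-0.32, adjusted p = 1.9e-09) fell. PLEC, plectin, which ties beta 4 to keratins, rose (0.31, adjusted p = 4.2e-11), while CD151, the tetraspanin that binds laminin receptors, was at 233 ± 10.1 and 235 ± 2.25 CPM (adjusted p = 0.80) (means with SD, n = 4 each). These last were named after their values were seen.

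Of 33 matrix ligand genes 18 were tested and 12 called, 7 higher and 5 lower (66.7% against 44.7% of all tested genes). Their median was 0.096. LAMA3 rose from 30.5 ± 1.65 to 55.55 ± 0.800 CPM (log2 fold change 0.87, edgeR adjusted p = 3.2e-15) and LAMB3 from 192 ± 8.69 to 321 ± 8.06 CPM (0.74, adjusted p = 5.2e-19). They encode chains of laminin-332, the epithelial ligand of alpha 3 beta 1 and alpha 6 beta 4. LAMA5 (-0.36, adjusted p = 1.5e-12) and LAMB1 (-0.32, adjusted p = 1.5e-10), which encode chains of other laminins, fell, and both were named after their values were seen. THBS1, thrombospondin 1, rose from 128 ± 6.30 to 229 ± 5.35 CPM (0.84, adjusted p = 1.1e-19) (means with SD, n = 4 each).

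**Figure D4:**
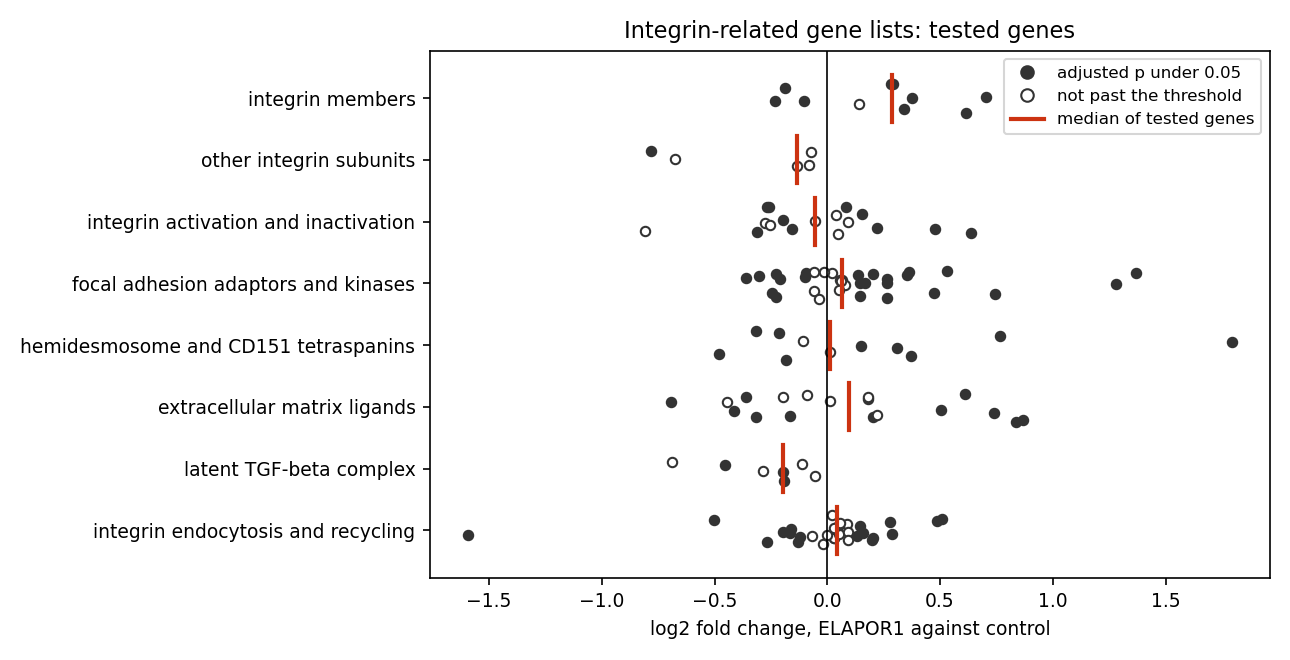
Log2 fold change, ELAPOR1 against control, of every tested gene in the integrin subunit genes and 7 related lists (filled where the edgeR adjusted p is under 0.05), with the median of each list (red). The list medians run from -0.20 to 0.096 in the 7 related lists and the subunit genes stand at 0.29. Subunit genes and lists were chosen with earlier results of these data known.

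TGF-beta genes and the proteins that hold latent TGF-beta, on which the beta 6 and beta 8 integrins act, were called about as often as genes in general. Of 9 genes 7 were tested and 3 called, 0 higher and 3 lower (42.9% against 44.7% of all tested genes, of which 22.6% were higher and 22.1% lower), with a median of -0.20. Without control replicate 1 the count was 5, all lower, with TGFB1 and TGFB2 added. LTBP3 fell from 75.8 ± 3.50 to 55.5 ± 3.80 CPM (log2 fold change -0.45, edgeR adjusted p = 2.2e-09), LTBP4 by 0.20 (adjusted p = 0.0024) and LTBP2 by 0.19 on the log2 scale (adjusted p = 0.012). TGFB1, listed in the table under AC011462.1, was at 93.1 ± 8.16 and 89.5 ± 2.97 CPM (adjusted p = 0.38) (means with SD, n = 4 each).

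Genes of integrin endocytosis and recycling were called in 17 of 30 tested genes out of 31, 9 higher and 8 lower (56.7% against 44.7% of all tested genes). Their median was 0.041. CAV1, caveolin 1, rose from 201 ± 5.44 to 286 ± 8.61 CPM (log2 fold change 0.51, edgeR adjusted p = 5.1e-15), and CAVIN1, a coat protein of caveolae, rose by 0.49 (adjusted p = 3.3e-14). RAB25, an epithelial recycling GTPase that binds beta 1 integrin, fell from 95.7 ± 4.45 to 67.55 ± 3.14 CPM (-0.50, adjusted p = 2.3e-11) (means with SD, n = 4 each).

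The genes whose profile was most like those of the most changed members were looked for by Pearson correlation of log2(CPM + 1) over the 8 libraries, among tested genes that averaged 5 CPM or more. For ITGB6 they were ZNF35 (r = 0.987), HK1 (r = 0.984) and TYW1B (r = 0.981), and for ITGB8 C12orf4 (r = 0.989), IFFO2 (r = 0.972) and SPOUT1 (r = 0.964). The 8 points fall into 2 groups that differ in these members, so each r holds that difference as well as the likeness within groups.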

How the data were processed

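RNA was measured in 4 control and 4 ELAPOR1 libraries of Panc 10.05 cells. The authors deposited estimated counts per gene (expected counts, not scaled between libraries); cutadapt, STAR, RSEM, DESeq2 and the build hg38 are named in the submitters' processing notes, without versions or settings. Of nonzero values 15% were not whole, since estimated counts divide reads that match several genes. The deposited counts were rounded and tested with edgeR 4.0.16 (R 4.3.3): filterByExpr, TMM, robust quasi-likelihood test, two-sided, no covariate, Benjamini-Hochberg adjustment across 13860 genes, threshold 0.05. The SE is the log2 fold change divided by the root of F. Positions, lengths and overlaps are from GENCODE 29 (GRCh38). Partner ratios were tested by exact permutation (scipy 1.17.1).

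Members and lists were chosen with earlier results of these data known. Named were all subunits tested, ELAPOR1, from each list the 3 called genes averaging 5 CPM or more that changed most, and the 3 genes most like each of the 2 most changed members. CYR61, CTGF, PTRF and TGFB1 were matched by gene ID or synonym. Some genes of the lists are not reported here by name. In simulated counts for 13860 genes, 55.2% of genes changed 1.2-fold, 92.5% of those changed 1.5-fold and 100% of those changed 2-fold were called, as were 11 of 13515 unchanged genes. The changed genes (67, 67 and 66) averaged 5 CPM or more and were far fewer than the 6193 called in the data. These shares therefore need not hold for the data. Alternatives were other scalings, DESeq2 1.42.0, limma-voom (limma 3.58.1), other filters and thresholds, removal of GC and length trends, the replicate number as a block and each library left out. Figures were drawn with matplotlib 3.10.9.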

Additional observations from a re-analysis of the deposited data

Results flagged for a closer look

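In 1 of 84 groups of 4 libraries examined (CPM of the subunits and of the genes named from the lists, partner ratios and library totals), 1 library stood apart from the other 3 by more than Dixon's 95% critical value for the gap, where chance gives 4.2 such groups. This was TNS4 at 8.63 CPM in control replicate 3, against 7.91 to 7.99 CPM in the other control libraries. The CPM of no integrin subunit gene and no partner ratio showed such a gap.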

How the results depend on the processing

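Directions of all 10 subunit genes were kept in each of 19 alternatives. Among these, the stricter threshold and the test against a 1.5-fold change keep the main fold changes, so they could not change a direction. The test against a 1.5-fold change called 0 of the 10 and 8 of the 121 related list genes tested, in place of 75. Over all tested genes it called 215 (1.55%), in place of 6193 (44.7%). Leaving out single libraries gave 8 to 10 called subunits, 69 to 75 list genes and 5557 to 6316 genes. ITGAV was also called with total count scaling, with the DESeq2 Wald test (0.14, adjusted p = 0.0489), with no filter beyond 1 count and with at least 10 counts in every library. With the replicate number as a block, 10 subunits were called, ITGAV included (log2 fold change 0.14, edgeR adjusted p = 0.0248), with 72 list genes and 5926 genes in all. Same-numbered libraries did not deviate together (r = -0.112 to 0.0355 across genes, and 1 of 8 libraries correlated best with its own number). This check gave no sign that the numbers pair them, but it cannot exclude it. Per kilobase of the union of exons, 6 of 10 genes kept their place in the order of control levels. With a pseudocount of 1 CPM, 6 partner ratios passed. ITGB8, with 37 to 72 counts a library, is the least precise member.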

Other observations

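Of the 121 related list genes tested, 8 passed edgeR's test against a 1.5-fold change, 6 higher and 2 lower (against 1.55% of all tested genes). The 4 of these named above were all higher: TNS4 (adjusted p = 7.4e-08), THBS1 (4.9e-07), LAMA3 (8.8e-05) and LAMB3 (3.8e-04). Some called genes of these lists under 5 CPM changed by more than any subunit gene, and were picked out after their values were seen. PTGFRN, a tetraspanin-associated protein, was at 0.383 ± 0.0470 and 1.34 ± 0.541 CPM (log2 fold change 1.79, edgeR adjusted p = 2.3e-04), KANK1, a protein at the rim of focal adhesions, at 1.63 ± 0.301 and 4.21 ± 0.405 CPM (1.37, adjusted p = 8.3e-07), and CLIC3, which takes part in integrin recycling from lysosomes, at 2.48 ± 0.362 and 0.820 ± 0.350 CPM (-1.59, adjusted p = 2.4e-05) (means with SD, n = 4 each). The matricellular integrin ligands CCN1 and CCN2 went in opposite directions, CCN1 from 1163 ± 38.5 to 720.3 ± 7.09 CPM (-0.69, adjusted p = 2.9e-20) and CCN2 from 6.74 ± 0.819 to 10.3 ± 0.714 CPM (0.61, adjusted p = 3.2e-05). Both were also named after their values were seen.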
